A study of Homo sapiens with 6 samples.

Results

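The interferon-stimulated genes examined here are 42 genes chosen by name from the 57905 genes of the deposited table, as genes known to be induced by interferon. All 42 were found in the table, and 38 of them had enough reads to be tested. The measurements come from HK-2 cells, an immortalized human proximal tubular epithelial line, labelled wild type and kept in serum-containing medium. One group of 3 libraries was transfected with the INO80 SMARTpool of Dharmacon ON-TARGETplus siRNAs (INO80 siRNA) and the other group of 3 with the non-targeting pool of the same series (control siRNA). Both groups received Lipofectamine RNAiMAX and were harvested after 48 h. INO80 is the catalytic subunit of a chromatin remodeling complex. Because both groups carried siRNA and lipid, and no untransfected or mock-transfected library was analysed here, the comparison measures whether the interferon-stimulated genes differed between the siRNA pools, and an effect that both transfections share cannot be told apart from the untreated state. The labels give replicate numbers without saying whether the replicates were separate cultures, so p-values measure the spread of these libraries only. In the fit blocked on replicate number, that is the spread left after differences between replicate numbers are taken out.

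Interferon-stimulated genes are the effector arm of innate antiviral defence. Double-stranded RNA, including transfected RNA, can be sensed by the cytosolic receptors RIG-I and MDA5 or by the endosomal receptor TLR3, and the sensors signal through IRF3 and IRF7 to induce type I and type III interferons. Secreted interferon binds its receptors and activates the kinases JAK1 and TYK2, which phosphorylate transcription factors of the STAT family. STAT2 then takes part with IRF9 in ISGF3, a complex that binds the interferon-stimulated response element in the promoters of these genes. Epithelial cells also keep a basal level of many of these genes without infection.

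The response element is visible in the promoters of the list. RefSeq promoter windows (GRCh38.p14), each of 300 bases from 250 before to 50 after a transcription start site, were found for 34 of the 42 members, with DDX58 matched under its current symbol RIGI. The element's core was searched as GAAANNGAAA and, on the opposite strand, as TTTCNNTTTC, and overlapping matches were counted separately. It was present in 24 of the 34 members (70.6%), against 4.38% of the 27305 gene symbols with a window. A match is a description of letters and not evidence of binding. The 150 bases before the start site are printed 5′ to 3′ along the gene's own strand, with the core in capitals, for the 5 members that differed between the siRNA pools and whose printed stretch holds the core, and for ISG15 and IFI6, which were among the members with the highest levels.
HERC5, chr4:88456969-88457118, plus strand: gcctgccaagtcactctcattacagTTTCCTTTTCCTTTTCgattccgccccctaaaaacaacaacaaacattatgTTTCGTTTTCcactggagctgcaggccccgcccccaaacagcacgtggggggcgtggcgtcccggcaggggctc
DDX60, chr4:168318753-168318902, minus strand: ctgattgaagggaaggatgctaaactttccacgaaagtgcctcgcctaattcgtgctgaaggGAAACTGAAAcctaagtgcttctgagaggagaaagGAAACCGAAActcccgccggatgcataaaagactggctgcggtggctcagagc
PARP9, chr3:122564301-122564450, minus strand: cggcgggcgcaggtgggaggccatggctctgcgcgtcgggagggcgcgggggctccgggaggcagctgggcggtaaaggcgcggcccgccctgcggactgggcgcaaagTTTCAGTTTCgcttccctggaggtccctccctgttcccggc
IFIT5, chr10:89414418-89414567, plus strand: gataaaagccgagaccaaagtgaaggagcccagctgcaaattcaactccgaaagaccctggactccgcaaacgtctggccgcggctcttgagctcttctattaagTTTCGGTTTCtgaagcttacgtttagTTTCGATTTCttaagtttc
GBP1, chr1:89065209-89065358, minus strand: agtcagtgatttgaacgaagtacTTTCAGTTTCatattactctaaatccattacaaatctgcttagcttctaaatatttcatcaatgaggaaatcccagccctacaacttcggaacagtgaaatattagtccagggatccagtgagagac
ISG15, chr1:1013347-1013496, plus strand: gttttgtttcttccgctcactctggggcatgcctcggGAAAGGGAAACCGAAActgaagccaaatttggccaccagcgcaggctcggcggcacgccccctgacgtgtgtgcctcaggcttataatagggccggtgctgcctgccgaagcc
IFI6, chr1:27672193-27672342, minus strand: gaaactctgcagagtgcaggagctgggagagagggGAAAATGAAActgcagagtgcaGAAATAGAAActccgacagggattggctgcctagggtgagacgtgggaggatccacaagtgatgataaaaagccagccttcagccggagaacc
The distance from the start site differed among them. In IFIT5 the core nearest to the start began 19 bases before it and in PARP9 41 bases before it, whereas in GBP1 the core lay 127 bases upstream. HERC5 held 3 matches, of which 2 overlap. CMPK2, which also differed between the pools, had no match in its 3 windows, and IFIT2 had no window in the table.

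The labels were checked on the targeted gene. INO80 was at 6.43, 7.07 and 7.75 FPKM in control siRNA replicates 1, 2 and 3, and at 1.91, 1.75 and 2.06 FPKM in INO80 siRNA replicates 1, 2 and 3. The log2 fold change was -1.91 ± 0.0691 (SE, n = 3 pairs; edgeR, adjusted p = 8.66e-17). Total counts ranged from 16829273 to 23784599 per library. Members are compared between libraries in CPM, the count scaled to the normalized library size, where a single read was worth 0.0413 to 0.0610 CPM. Of 13 proximal tubule and epithelial markers, 7 were tested, among them KRT8, KRT18, KRT19, PAX8, CDH6 and GGT1, while the transporter and scavenger receptor genes SLC22A6, LRP2, CUBN and AQP1 had between 0 and 16 reads over all 6 libraries, and ANPEP and SLC34A1 had 19 and 55. Blood and immune cell markers summed to 15 to 38 reads per library, and PTPRC, CD3E, MS4A1 and CLEC4C had none.

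Between the siRNA pools, 7 interferon-stimulated genes differed by small amounts, some higher and some lower. In the fit blocked on replicate number, 7 of the 38 tested members passed an adjusted p of 0.05 (18.4%), against 24.8% of the 15343 genes tested. The order of these shares depended on the fit. Without the replicate 1 pair, 34.2% of the members (10 higher and 3 lower) and 25.4% of all genes passed. The members also lay above all genes without replicate 3 (16.2% against 14.6%) and without a filter on low counts (21.4% against 12.8%). So they did without the block (2.63% against 1.75%) and by DESeq2 with the block. They lay below all genes without replicate 2 (10.5% against 17.0%), under the other scalings and by limma. IFIT2, IFIT5 and GBP1 fell (3 members, 7.89%, against 13.4% of all genes), and DDX60, HERC5, CMPK2 and PARP9 rose (4 members, 10.5%, against 11.4%). The changes among these 7 lay between -0.42 and 0.59 on the log2 scale, and no member reached a log2 fold change of 1 in either direction. The median log2 fold change over the 38 members was 0.11, against 0.01 over all tested genes, and 27 members (71.1%) had a positive value, against 51.6% of all genes. Without the block, 1 member was lower (GBP1, where 1.49% of all genes were lower) and 0 were higher (0.261%) by edgeR, with 2 members at an unadjusted p under 0.05, against 16.4% of all genes. DESeq2 with the block called 1 lower (GBP1) and 2 higher (HERC5 and PARP9), which is 7.14% of the members, against 4.34% of all genes. By limma with the block, GBP1 alone passed on log2(FPKM + 0.1), against 5.89% of all genes. On log2(FPKM + 1), 0 members passed, against 5.30%. In CPM, the groups did not overlap in 2 members, IFIT5 and GBP1, both lower (11.5% of all genes did not overlap in that direction), and in 0 members that were higher (11.3%).

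**Figure D1:**
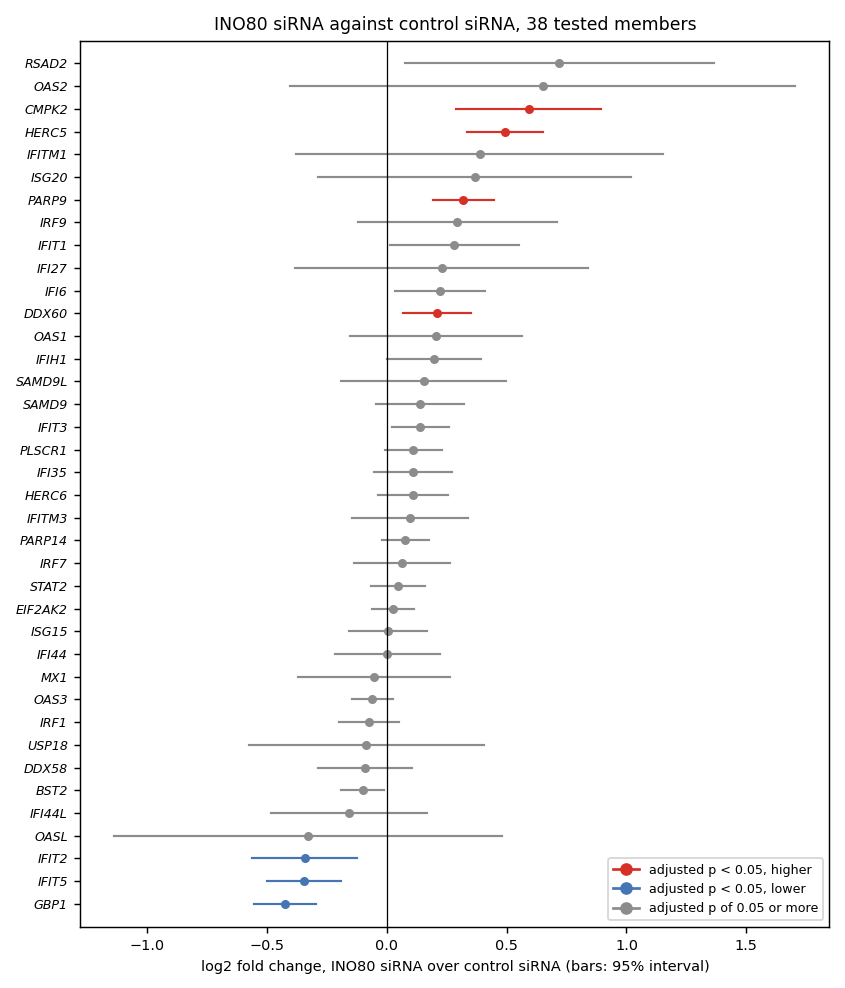
The log2 fold change of each of the 38 tested members, INO80 siRNA over control siRNA, is plotted with its 95% interval from edgeR with the replicate block. The 3 members in blue fell and the 4 in red rose at an adjusted p under 0.05, and the widest intervals belong to members with few reads such as OAS2 and OASL.

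The members differed widely in level. Measured as FPKM, which divides the count by the exonic length and the library total and so allows genes to be compared, 6 members had a mean over the 6 libraries of at least 10, 21 lay between 1 and 10, and 15 were under 1. BST2, which encodes tetherin, a membrane protein that holds budding virions at the cell surface, was the highest, at 74.9, 86.5 and 88.0 FPKM in control siRNA replicates 1, 2 and 3 and at 68.2, 85.2 and 81.0 FPKM in INO80 siRNA replicates 1, 2 and 3. Its lowest library lay above every library of the next member, ISG15, which had a mean of 29.3 FPKM. IFI6 followed at 21.9, IFIT3 at 16.5, OAS3 at 14.4 and PARP14 at 10.4 FPKM. From ISG15 down, the ranges of neighbours over the 6 libraries overlapped, except between IFI27 and ISG20, which makes 39 of the 41 neighbouring pairs. Overlapping ranges do not show equal levels, and the order within libraries was not tested. ISG15, for example, was above IFI6 in each library, from 24.3 against 11.5 FPKM in control siRNA replicate 1 to 30.6 against 29.5 FPKM in INO80 siRNA replicate 3. At the bottom, 4 members had too few reads to be tested. MX2 had 7 reads in all, of which 6 came from INO80 siRNA replicate 3 and 1 from INO80 siRNA replicate 2. XAF1 had 1 read in each replicate 3 library. IFITM2 had 0 to 10 reads per library and TRIM22 had 2 to 10.

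**Figure D2:**
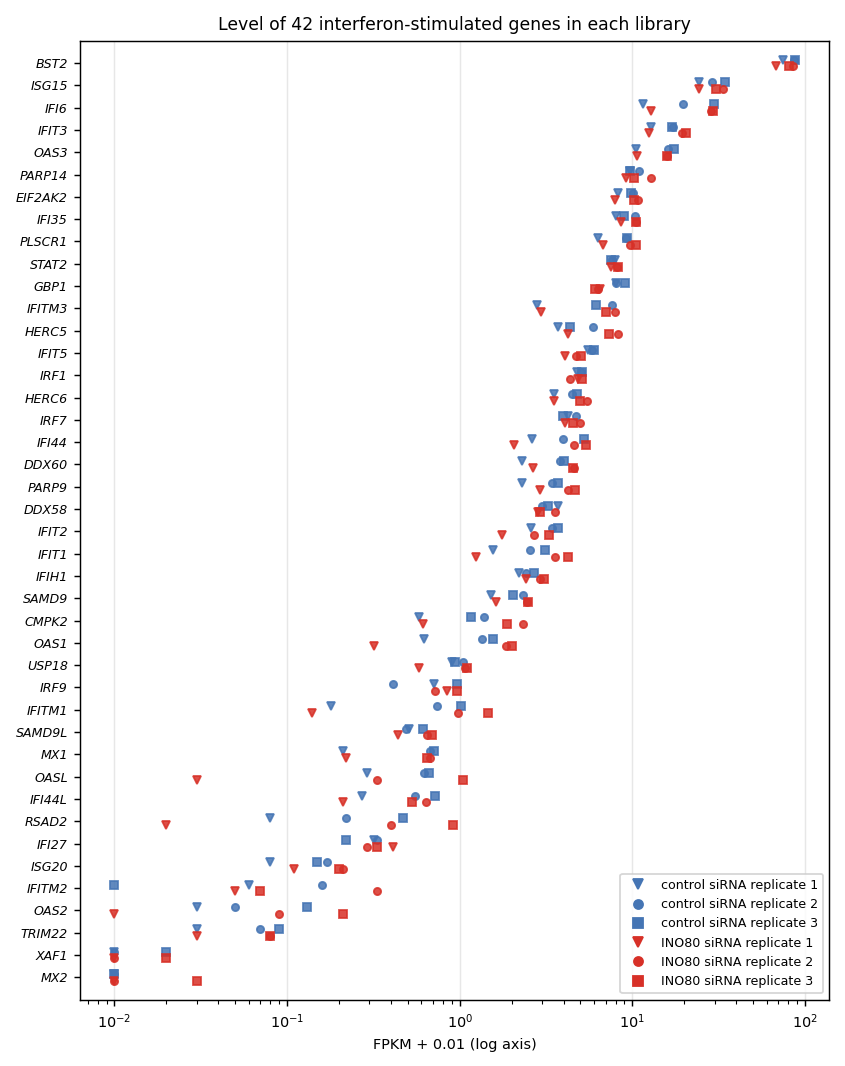
The FPKM of each of the 42 members in each library is plotted on a log axis after adding 0.01, with control siRNA in blue and INO80 siRNA in red and the marker shape giving the replicate number. BST2 stood apart at 68.2 to 88.0 FPKM, and for many members the triangles of replicate 1 of both groups lay to the left of the other 4 libraries.

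Among the sensors, DDX60 rose. DDX60 encodes a helicase described as a partner of RIG-I-like receptors, and lies on chromosome 4 from 169137444 to 169239958 (GRCh37, minus strand). It was at 15.9, 25.6 and 26.8 CPM in control siRNA replicates 1, 2 and 3 and at 18.5, 30.4 and 30.2 CPM in INO80 siRNA replicates 1, 2 and 3. Each INO80 siRNA library was above its numbered control, yet the groups overlapped because both replicate 1 libraries were the lowest. The log2 fold change was 0.21 ± 0.0683 (adjusted p = 0.0255, and 0.722 without the block). The call was lost without replicate 2 (adjusted p = 0.193) or replicate 3 (adjusted p = 0.0935), and by DESeq2 with the block (adjusted p = 0.571). DDX58, the gene of RIG-I, had a log2 fold change of -0.09 (95% interval -0.29 to 0.11), and IFIH1, the gene of MDA5, had 0.20 (-0.00 to 0.39), and neither passed the test.

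None of the 4 transcription factor genes passed the test. STAT2, the subunit of ISGF3 that brings the activation domain, ranged from 45.4 to 49.7 CPM over the 6 libraries, with a log2 fold change of 0.05 (95% interval -0.07 to 0.16). IRF9, its DNA-binding partner, was low, at 31 to 86 reads per library, and its log2 fold change was 0.29 (-0.12 to 0.71). IRF1, which is induced mainly by interferon gamma, had -0.08 (-0.20 to 0.05), and IRF7, which amplifies interferon production, had 0.06 (-0.14 to 0.26). The intervals of STAT2, IRF1 and IRF7 did not reach the size of the changes found in HERC5 or GBP1.

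In the ISG15 system, the ligase gene rose while the modifier did not pass the test. HERC5 encodes the main E3 ligase that attaches ISG15, a ubiquitin-like protein, to newly made proteins, and lies on chromosome 4 from 89378268 to 89427314 (GRCh37, plus strand). It was at 18.0, 27.9 and 20.5 CPM in control siRNA replicates 1, 2 and 3, and at 20.7, 38.8 and 34.1 CPM in INO80 siRNA replicates 1, 2 and 3. The INO80 siRNA library was the higher of each pair. The log2 fold change was 0.49 ± 0.0774 (adjusted p = 2.87e-05, and 0.349 without the block), and with each pair left out it lay between 0.37 and 0.59 and stayed past the threshold. ISG15 was at 17.7, 20.5 and 24.3 CPM in control siRNA replicates 1, 2 and 3 and at 17.7, 23.5 and 21.4 CPM in INO80 siRNA replicates 1, 2 and 3. The pairs went in different directions, and the log2 fold change was 0.00 (95% interval -0.16 to 0.17, adjusted p = 0.986). HERC6, the neighbouring paralogue of HERC5, had a log2 fold change of 0.11 (-0.04 to 0.25). USP18, which removes ISG15 and restrains the receptor, had -0.09 (-0.58 to 0.41) at 25 to 55 reads per library.

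The IFIT genes, whose products bind viral RNA ends and block its translation, did not move together. They stand in a row on chromosome 10 between 91061712 and 91180758 (GRCh37), yet 2 fell and 2 did not pass the test. IFIT5 was at 22.9, 23.2 and 24.0 CPM in control siRNA replicates 1, 2 and 3 and at 16.7, 18.6 and 19.8 CPM in INO80 siRNA replicates 1, 2 and 3. All 3 INO80 siRNA libraries were below all 3 controls. The log2 fold change was -0.35 ± 0.0745 (adjusted p = 0.00107), and it kept its call with each pair left out. The call was lost without the block (adjusted p = 0.108) and by DESeq2 with the block (adjusted p = 0.0907). IFIT2, from 91061712 to 91069033 on the plus strand, was at 9.21, 11.8 and 12.8 CPM in control siRNA replicates 1, 2 and 3, and at 6.32, 9.23 and 11.2 CPM in INO80 siRNA replicates 1, 2 and 3. It was lower in each pair while the groups overlapped. The log2 fold change was -0.34 ± 0.106 (adjusted p = 0.0181), with an adjusted p of 0.487 without the block, 0.0645 without replicate 1 and 0.0779 without replicate 2. By DESeq2 with the block the adjusted p was 0.434. IFIT3, the fourth by FPKM, was at 34.5, 44.9 and 44.7 CPM in control siRNA replicates 1, 2 and 3 and at 33.9, 50.4 and 52.9 CPM in INO80 siRNA replicates 1, 2 and 3. Only in replicates 2 and 3 was the INO80 siRNA library the higher, and the log2 fold change of 0.14 ± 0.0582 did not pass the test (adjusted p = 0.0837, and 0.00426 without replicate 1). IFIT1 had the same pattern, at 4.94, 7.78 and 9.57 CPM under control siRNA and 3.88, 10.7 and 12.9 CPM under INO80 siRNA, with a log2 fold change of 0.28 (95% interval 0.01 to 0.55, adjusted p = 0.12).

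The OAS family makes 2′-5′-linked oligoadenylates that activate RNase L, and EIF2AK2 encodes PKR, the kinase that halts translation on double-stranded RNA. None of these genes, nor the exonuclease gene ISG20, passed the test between the siRNA pools. OAS3 was at 89.3, 133 and 142 CPM in control siRNA replicates 1, 2 and 3 and at 90.5, 129 and 128 CPM in INO80 siRNA replicates 1, 2 and 3. The replicate 1 libraries were alike and lower than the rest, and the log2 fold change was -0.06 (95% interval -0.15 to 0.03, adjusted p = 0.324). EIF2AK2 had a log2 fold change of 0.03 (-0.06 to 0.11). OAS2 was near the floor, with 2, 5 and 14 reads under control siRNA and 0, 12 and 30 reads under INO80 siRNA in replicates 1, 2 and 3, so its log2 fold change of 0.65 had an interval from -0.40 to 1.71. OAS1 and OASL, described here after their values were seen, went in opposite directions between pairs. OAS1 had 40, 106 and 116 reads under control siRNA and 25, 172 and 187 under INO80 siRNA. OASL, which enhances RIG-I signalling, had 11, 29 and 29 reads under control siRNA and 1, 18 and 57 under INO80 siRNA. Their log2 fold changes were 0.20 (-0.16 to 0.56) and -0.33 (-1.14 to 0.48).

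CMPK2 rose and its neighbour RSAD2 had the largest fold change of the list in the blocked edgeR fit without passing the test. CMPK2 encodes a mitochondrial nucleotide kinase, and RSAD2 encodes viperin, which turns CTP into a chain-terminating nucleotide. The genes overlap on opposite strands of chromosome 2 (CMPK2 from 6980701 to 7006766 and RSAD2 from 7005937 to 7038370, GRCh37). CMPK2 was at 2.50, 5.87 and 4.91 CPM in control siRNA replicates 1, 2 and 3, and at 2.64, 9.77 and 7.84 CPM in INO80 siRNA replicates 1, 2 and 3. Its log2 fold change was 0.59 ± 0.146 (adjusted p = 0.0037), and the call was lost without the block (0.57), without replicate 2 (0.0963) and without replicate 3 (0.0626). DESeq2 with the block did not call CMPK2 either (adjusted p = 0.344). RSAD2 had 6, 21 and 43 reads under control siRNA and 1, 45 and 104 reads under INO80 siRNA in replicates 1, 2 and 3. It was lower under INO80 siRNA in replicate 1 and higher in the others, and its log2 fold change was 0.72 ± 0.313 (adjusted p = 0.0983, and 0.00488 without replicate 1). With the block, the value for RSAD2 was 0.096 by DESeq2 and 0.29 and 0.17 by limma on log2(FPKM + 0.1) and log2(FPKM + 1). CMPK2 was at 0.54, 0.47 and 0.31 in these fits. MX1, a dynamin-like GTPase that traps viral nucleocapsids, was at 1.77, 5.68 and 5.95 CPM under control siRNA and 1.84, 5.59 and 5.45 CPM under INO80 siRNA. Its pairs agreed closely, and its log2 fold change was -0.05 (95% interval -0.37 to 0.26).

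Among the membrane restriction factors, none of the 4 tested genes passed the test. BST2 was at 86.0, 96.2 and 97.9 CPM in control siRNA replicates 1, 2 and 3 and at 78.5, 93.8 and 89.0 CPM in INO80 siRNA replicates 1, 2 and 3. It was lower in each pair, by little, with a log2 fold change of -0.10 ± 0.0434 (adjusted p = 0.0944). IFITM3, which blocks fusion of virus with endosomes, had a log2 fold change of 0.10 (95% interval -0.15 to 0.34), and PLSCR1, a scramblase that also restricts virus entry, had 0.11 (-0.01 to 0.23). IFITM1, which overlaps IFITM2 on the same strand so that their reads cannot be told apart with certainty, had 3 to 37 reads per library.

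None of IFI6, IFI27, IFI35, IFI44 and IFI44L passed the test. IFI6, a small endoplasmic reticulum protein that protects against flaviviruses, was at 10.2, 16.8 and 25.5 CPM in control siRNA replicates 1, 2 and 3 and at 11.5, 24.2 and 25.1 CPM in INO80 siRNA replicates 1, 2 and 3. The range within each group was wider than the difference between groups, and the log2 fold change of 0.22 ± 0.091 did not pass the test (adjusted p = 0.0779, 0.0253 without replicate 1 and 0.0178 without replicate 3). IFI44 had a log2 fold change of 0.00 (95% interval -0.22 to 0.22), IFI35 had 0.11 (-0.05 to 0.27), IFI44L had -0.16 (-0.48 to 0.17) and IFI27 had 0.23 (-0.38 to 0.84).

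Of the remaining effectors, GBP1 fell and PARP9 rose. GBP1 encodes a guanylate-binding GTPase, induced most strongly by interferon gamma, that coats intracellular bacteria and vacuoles, and lies on chromosome 1 from 89518002 to 89531043 (GRCh37, minus strand). It was at 41.0, 40.0 and 45.2 CPM in control siRNA replicates 1, 2 and 3, and at 33.4, 31.2 and 29.7 CPM in INO80 siRNA replicates 1, 2 and 3. All INO80 siRNA libraries were below all controls, and the log2 fold change was -0.42 ± 0.0635 (adjusted p = 1.57e-05). GBP1 was the only member called without the block (adjusted p = 0.0446). With any 1 of the 6 libraries left out of that unblocked fit, 0 members were called by edgeR, against 0.115% to 0.932% of all genes. PARP9, a macrodomain protein that works with the ubiquitin ligase DTX3L, lies on chromosome 3 from 122246771 to 122283424 (GRCh37, minus strand). It was at 21.0, 30.2 and 32.7 CPM in control siRNA replicates 1, 2 and 3, and at 26.7, 37.2 and 40.7 CPM in INO80 siRNA replicates 1, 2 and 3. Its pair ratios were the most alike of the list, at 0.34, 0.30 and 0.31 on the log2 scale, and the log2 fold change was 0.32 ± 0.0615 (adjusted p = 0.000352, and 0.466 without the block). DTX3L, which overlaps PARP9 on the opposite strand with 11157 reads, had a log2 fold change of 0.09 (adjusted p = 0.165). PARP14 had 0.08 (95% interval -0.02 to 0.17), SAMD9 had 0.14 (-0.04 to 0.32) and SAMD9L had 0.15 (-0.19 to 0.50).

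**Figure D3:**
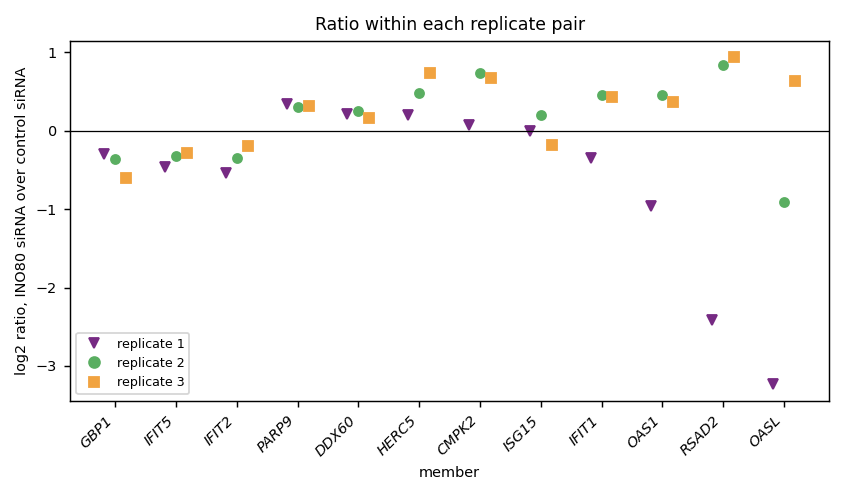
The log2 ratio of INO80 siRNA to control siRNA within each replicate pair is plotted for the 7 called members and for ISG15, IFIT1, OAS1, RSAD2 and OASL, after 0.5 was added to each count. The 3 pairs agree in sign for the 7 members on the left, and the replicate 1 pair lies far below the others for RSAD2 (-2.41) and OASL (-3.23).

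More of the interferon-stimulated genes passed the test for the replicate number than for the siRNA pool. In the same fit, 25 of the 38 members (65.8%) passed an adjusted p of 0.05 for the replicate terms, against 26.7% of the 15343 genes. Both replicate 1 libraries, one of each pool, were below the other 4 libraries in 26 members (68.4%), against 15.1% of all genes, and above them in 1 member, IFI27 (2.63%, against 15.0%). The replicate 2 libraries were both lowest in 1 member (IRF9, against 7.76% of all genes) and both highest in 3 (against 7.78%). The replicate 3 libraries were both lowest in 0 members (against 6.30%) and both highest in 8 (against 6.44%), which were IRF1, IRF9, OAS2, OASL, RSAD2, IFITM1, IFI6 and IFI44. The median fitted difference over the members was 0.49 on the log2 scale for replicate 2 over replicate 1 and 0.51 for replicate 3 over replicate 1, against 0.04 for replicate 3 over replicate 2. Over all tested genes each of these medians was 0.00. Summed over the 42 members, the level was 804 CPM in control siRNA replicate 1 and 776 CPM in INO80 siRNA replicate 1, and between 981 and 1049 CPM in the other 4 libraries. That the replicate 1 libraries stand apart was known from earlier results of these data, and the positions are given as a description.

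**Figure D4:**
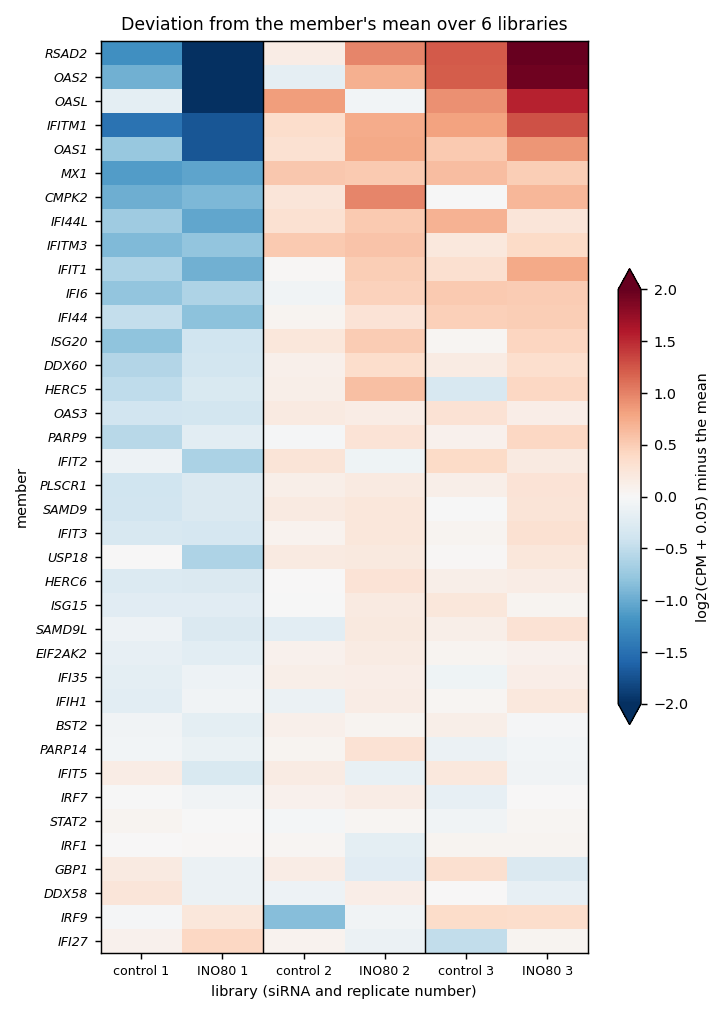
Each cell gives log2(CPM + 0.05) of a member in a library minus the member's mean over the 6 libraries, with colours limited at -2.0 and 2.0. The 2 left columns, control and INO80 siRNA of replicate 1, are blue for most members, whereas members at the bottom such as GBP1, STAT2, IRF1 and IFI27 are not lowest there.

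The size of the replicate difference varied with the member. OAS3 had the smallest p, with differences of 0.54 and 0.59 on the log2 scale for replicates 2 and 3 over replicate 1 (adjusted p = 2.21e-09). MX1 differed by 1.64 and 1.65 (adjusted p = 1.31e-06), IFI6 by 0.92 and 1.22 (3.24e-08), IFITM3 by 1.39 and 1.15 (3.21e-07) and IFIT1 by 1.09 and 1.36 (2.34e-06). The low-count members RSAD2 and OAS2 had the largest fitted values, 4.05 and 4.04 for replicate 3 over replicate 1. By role, all 3 tested genes of the MX, RSAD2 and CMPK2 group, all 4 tested membrane factors and 5 of the 6 genes of the OAS, PKR and ISG20 group differed. In contrast, 0 of the 4 transcription factor genes did, and STAT2 had an adjusted p of 0.922 for the replicate terms. IRF9 came closest among these, at 0.0529. Of the 7 members that differed between the siRNA pools, the 4 that rose and IFIT2 also differed between replicate numbers. IFIT5 (adjusted p = 0.418) and GBP1 (0.77) did not pass for the replicate terms. Over all genes, 1484 of the 3798 that differed between the pools also differed between replicate numbers. Among all tested members, called or not between the pools, 65.8% differed between replicate numbers. Whether the 7 members differ in this from the rest of the list was not tested.

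The promoter core was also unevenly spread. Among members with a window, it was present in 19 of the 22 that differed between replicate numbers (86.4%) and in 5 of the 11 tested members that did not (45.5%), a comparison made after the values were seen and not tested. STAT2, IRF1, IRF9 and DDX58 were among the members without it, and so were OAS1, HERC6 and CMPK2, which differed.

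**Figure D5:**
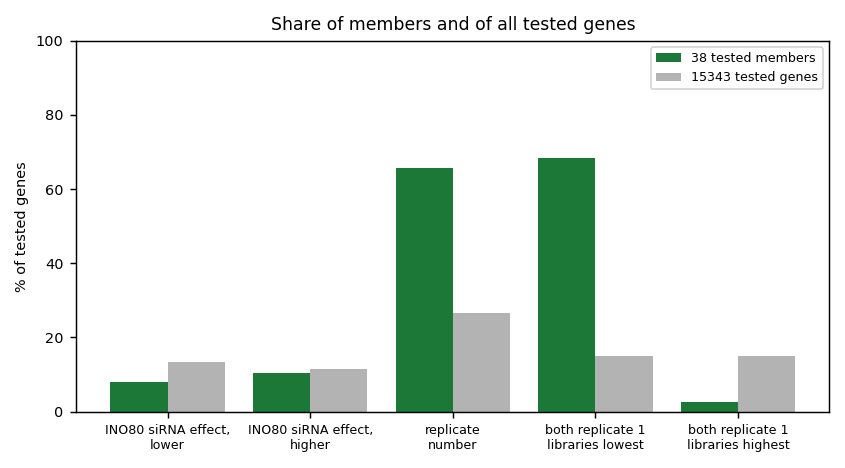
The bars give the share of the 38 tested members (green) and of the 15343 tested genes (grey) that were called lower or higher under INO80 siRNA, that were called between replicate numbers, and whose 2 replicate 1 libraries were both lowest or both highest. The members lie below or near the grey bars for the siRNA effect (7.89% and 10.5%) and well above them for the replicate number (65.8%) and for both replicate 1 libraries lowest (68.4%).

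Other properties of the libraries that move with the replicate number stand beside this result. The replicate 1 libraries had normalization factors of 0.976 and 0.973, against 1.01 to 1.02 in the others. Control siRNA replicate 1 had the fewest reads, 16829273, but INO80 siRNA replicate 1, with 20678008, had more than control siRNA replicates 2 and 3. All 7 tested epithelial markers also differed between replicate numbers, and their list summed to 2092 and 2168 CPM in replicate 1 and to between 1956 and 1998 CPM in the other libraries. The markers did not move as 1 group. Both replicate 1 libraries were highest in 3 of the 7, KRT19 and PAX8 among them, and lowest in 2, CDH6 and GGT1. The part of depth and of the epithelial genes in the result was not tested, and in bulk RNA fewer expressing cells and less RNA per cell cannot be told apart. With replicate 1 left out, 6 members differed between replicates 2 and 3 (11.1% of all genes did). With replicate 2 or replicate 3 left out, 24 members differed, against 20.4% and 21.6% of all genes.

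The ratio of INO80 siRNA to control siRNA differed among the 3 pairs. Each pair holds 1 library of each pool, so this difference cannot be told apart from the spread between libraries and was not tested. The median of the members' log2 ratios was -0.04 in the replicate 1 pair, 0.20 in the replicate 2 pair and 0.16 in the replicate 3 pair (SD 0.131). In 21 of the 38 members (55.3%) the replicate 1 pair had the lowest ratio of the 3, against 37.0% of all genes. OASL ranged from -3.23 to 0.64 over the pairs, OAS1 from -0.96 to 0.45 and IFIT1 from -0.35 to 0.46. In all 3 pairs, 4 members were lower (25.9% of all genes were) and 10 were higher (26.7%). The other 24 of the 38 members changed sign between pairs, as did 7265 of the 15343 genes. Without the replicate 1 pair, 10 members were called higher and 3 lower (25.4% of all genes were called in that fit). CMPK2, DDX60, HERC5, IFI6, IFIT1, IFIT3, OAS1, PARP14, PARP9 and RSAD2 were then higher, and GBP1, IFIT5 and OAS3 lower. Without replicate 2, HERC5 and PARP9 were higher and GBP1 and IFIT5 lower (10.5% of the members, against 17.0% of all genes). Without replicate 3, HERC5, IFI6 and PARP9 were higher and GBP1, IFIT2 and IFIT5 lower (16.2%, against 14.6%).

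The steps before the interferon-stimulated genes were examined through lists of the pathway. Of 21 interferon ligand genes, 19 had no read in any library, IFNB1 among them, where 0 reads allows up to 3 reads per library. IFNE had 4 reads in all and IFNL3 had 12, with 1, 2 and 0 under control siRNA and 1, 4 and 4 under INO80 siRNA. No ligand gene could be tested.

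The receptors and signalling genes were all expressed, and 5 of the 15 passed the test (33.3%, against 24.8% of all genes). STAT3 rose, at 123, 123 and 122 CPM in control siRNA replicates 1, 2 and 3 and at 157, 150 and 150 CPM in INO80 siRNA replicates 1, 2 and 3, without overlap. Its log2 fold change was 0.31 ± 0.0386 (adjusted p = 9.29e-07), and among the 65 tested genes of the pathway lists it was the only one called without the block (adjusted p = 0.0299). IFNGR1, the ligand-binding chain of the interferon gamma receptor, rose by a log2 fold change of 0.23 (adjusted p = 0.00281), and IFNGR2, its partner chain, fell by 0.15 (adjusted p = 0.0207). JAK2, a kinase of that receptor, fell by 0.37 (adjusted p = 0.0453), and SOCS3, an inhibitor of cytokine signalling, rose by 0.21 (adjusted p = 0.0189).

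Of 24 genes of RNA and DNA sensing, 20 were tested, 5 rose and 2 fell (35%, against 24.8% of all genes). DHX58, which encodes LGP2, a regulator of RIG-I and MDA5, had the largest change, at 5.25, 6.56 and 6.88 CPM in control siRNA replicates 1, 2 and 3 and 8.90, 11.1 and 12.2 CPM in INO80 siRNA replicates 1, 2 and 3 (log2 fold change 0.78 ± 0.113, adjusted p = 9.99e-06, and 0.0574 without the block). The groups did not overlap. IFI16, a nuclear DNA sensor, rose by 0.48 (adjusted p = 3.16e-07), and IRF3, the factor that starts interferon transcription, rose by 0.29 (adjusted p = 3.95e-05). ADAR, which edits double-stranded RNA and keeps self RNA from being sensed, rose by 0.16 (adjusted p = 0.00114). IKBKE, a kinase upstream of IRF3, fell by 0.44 (adjusted p = 0.0083). TLR3 had a log2 fold change of -0.04 (adjusted p = 0.873), and TLR7, TLR8, TLR9 and ZBP1 had no read.

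A further 40 interferon-induced genes gave 30 that were tested, of which 7 rose and 4 fell (36.7%, against 24.8% of all genes). TNFSF10, the gene of the death ligand TRAIL, fell by 0.34 (adjusted p = 8.85e-07). TAP1, the peptide transporter of antigen presentation, fell by 0.30 (adjusted p = 0.00014), and CD274, the gene of PD-L1, fell by 0.38 (adjusted p = 0.000759). TNFSF10 and CD274 had both replicate 1 libraries highest, the opposite of most members. Most of this list did not share that position. Both replicate 1 libraries were highest in 4 of its 30 tested genes (against 15.0% of all genes). They were lowest in 12 (40%, against 15.1% of all genes). The fourth by p was TRIM14, an adaptor in antiviral signalling, which fell by 0.27 (adjusted p = 0.00103). Of the other guanylate-binding genes, GBP2 had a log2 fold change of -0.11 (95% interval -0.37 to 0.15, adjusted p = 0.576), GBP3 had 0.07 (-0.06 to 0.19, adjusted p = 0.468) and GBP4 had no read, and their difference from GBP1 was not tested. Over all 4 lists, 23 of the 65 tested genes passed (35.4%), 15 higher and 8 lower, against 24.8% of all genes. For the replicate terms 41.5% of the 65 passed, between the 26.7% of all genes and the 65.8% of the members.

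Several members share their locus with another gene, and the strand setting of the read counting is not given in the sources used here, although the library kit marks strand. LIPA, with 14684 reads, runs opposite to IFIT1, IFIT2 and IFIT3 (its log2 fold change was 0.04, adjusted p = 0.516). IRF9, with 362 reads, lies within a same-strand transcript that had 160. GPATCH11 with 3972 reads overlaps the end of EIF2AK2, and TRIM5 with 1619 reads overlaps TRIM22.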

How the data were processed

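RNA-seq was analysed for 6 libraries, 3 control siRNA and 3 INO80 siRNA. The authors deposited 1 table with raw counts per gene and FPKM, which the authors computed from counts and exonic length. The processing notes name HISAT2 2.0.1, HTSeq and hg19, whereas the study's methods name ELAND and hg38, and the coordinates of the table are GRCh37. Total counts were 16829273 to 23784599 per library. Members were matched by gene symbol. Members and lists were chosen with earlier results of these data known.

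Counts were fitted with edgeR 4.0.16 (R 4.3.3; filterByExpr, TMM, quasi-likelihood F-test) over 15343 genes with treatment and replicate number as terms, and p-values were adjusted over all of them by the Benjamini-Hochberg method. The block was set together with the member list. Libraries of 1 number deviated together (r over genes 0.639, 0.446 and 0.427 for replicates 1, 2 and 3, against -0.447 to 0.165 for different numbers). Deviations were taken from each group's own mean, so a positive r for equal numbers by itself lowers the r for different numbers. The source of the block is the replicate number in the labels, and the study's methods name no pairing. Calls are at an adjusted p under 0.05, errors are standard errors of the log2 fold change, and intervals are 95%. Replicate terms were tested jointly. DESeq2 1.42.0, limma 3.58.1 on log2(FPKM + 0.1) and log2(FPKM + 1), other scalings, no filter and left-out libraries were alternatives. Values in every library are given for called members, the 5 with the highest FPKM and the 3 with the largest fold change; pathway genes named are up to 4 a list by p with IFNB1 and TLR3, and others were named after their values were seen. Results for some genes are not reported here. The fits were tested on data simulated from the blocked fit, with a log2 change of 1 in 200 genes. By edgeR, 200 of these were recovered with the block, with 12 false calls, and 157 without it, with 0 false calls. DESeq2 with the block recovered 191 with 0 false calls, and limma with the block 200 with 15. Because the simulated data carry the fitted replicate differences, they cannot show whether the block is right for these libraries. Changes as small as those of the called members, and members with few reads, were not covered. Limits for 0 counts cover counting error only. With 3 libraries a group, outlying libraries were not tested.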

Additional observations from a re-analysis of the deposited data

How the results depend on the processing

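The blocked edgeR calls are small effects that depend on the pairing and on the test method. Without the block, the members called lower and higher numbered 1 and 0 and the pathway genes 1, in place of 3, 4 and 23. DESeq2 with the block gave 1, 2 and 7, limma on log2(FPKM + 0.1) gave 1, 0 and 8, and limma on log2(FPKM + 1) gave 0, 0 and 6. The share of all genes called also fell, from 24.8% in the main fit. It was 1.75% without the block, 4.34% by DESeq2 and 5.89% and 5.30% by limma. A log2 fold change limit of 1 left 0 and 0, and 75 of the 15343 genes. With a replicate pair left out, the members called lower numbered 2 to 3 and higher 2 to 10 and the pathway genes 14 to 25, where 14.6% to 25.4% of all genes were called. With a library left out and no block they numbered 0 and 0 and 0 to 2, where 0.115% to 0.932% of all genes were called. The median log2 fold change of the members lay between -0.01 and 0.27 over these fits. The count of members that differed between replicate numbers was 26 or 27 under other scalings or without a filter, against 14.5% to 32.0% of all genes. With a pair left out, an alternative chosen after seeing the data, it was 6 to 24, against 11.1% to 21.6% of all genes.

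The 7 called members kept their direction in every alternative run, but with 1 library left out and no block 5 of them moved by over 1.5 times, none of them called there. DDX60 went from 0.21 to 0.0107 and 0.34 without control siRNA replicates 1 and 3 and to 0.40, 0.094 and 0.10 without INO80 siRNA replicates 1, 2 and 3. CMPK2 went from 0.59 to 0.33 without control siRNA replicate 1 and to 0.97 and 0.24 without INO80 siRNA replicates 1 and 2. PARP9 went from 0.32 to 0.15 without control siRNA replicate 1 and 0.19 without INO80 siRNA replicate 3, IFIT2 from -0.34 to -0.15 and -0.53 without INO80 siRNA replicates 1 and 3, and HERC5 from 0.49 to 0.31 without INO80 siRNA replicate 2. With a pair left out and the block kept, the log2 fold change of ISG15 lay between -0.103 and 0.107. With a library left out and no block, that of ISG15 turned to -0.0992 and -0.0114 without control siRNA replicates 1 and 2 and to -0.0918 and -0.016 without INO80 siRNA replicates 2 and 3. OAS3 turned to 0.00158 and 0.059 without control siRNA replicates 2 and 3 and to 0.0834 without INO80 siRNA replicate 1, and IFI6 to -0.0553 without control siRNA replicate 1. RSAD2 and OAS2 turned to -0.304 and -0.481 without INO80 siRNA replicate 3. None of these values passed the threshold. The cause was not tested. Fitting by total counts or without a filter called 6 members higher, adding IFI6 in both and IFIT3 or RSAD2. In either direction, 23.7% and 21.4% of the members were called in these fits, against 26.5% and 12.8% of all genes. OAS2, OASL, IFITM1 and ISG20, with 63 to 145 reads in all, had intervals too wide to detect changes of the size seen in the called members.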
